A study of Mus musculus with 14 samples.

Results

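The H3K27me3 landscape of the mouse cerebellum at postnatal day 7 (P7) was described from the 3 ChIP-seq libraries that the labels give this age, out of 14 libraries in the series. Joining the peaks of the 3 lists wherever they met or overlapped left 19903 regions. The 5964 regions that held at least 1 bp of a peak from every list are called consensus regions here. The other libraries of the series came from older animals and from a knockout experiment and were not used. The P7 mice were C57BL/6NCrl animals of both sexes carrying no engineered allele, and each library pooled the cerebella of more than one mouse, so a library stands for a pool and not for an animal. Whole tissue was fixed with formaldehyde, sheared by sonication, precipitated with an Active Motif antibody against H3K27me3 and read as single ends. The labels give the antibody catalogue numbers 39155, 39156 and 39157 for replicates 1, 2 and 3, while the study's methods name a single antibody. No input library is named in the sources used here.

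H3K27me3 is the trimethylated form of lysine 27 of histone H3. It is written by Polycomb repressive complex 2, whose catalytic subunit is EZH1 or EZH2, it is removed by the demethylases KDM6A and KDM6B, and it is read by CBX proteins of Polycomb repressive complex 1. The mark is known for covering the CpG-rich promoters of developmental regulators that a cell type does not use. At this age the cerebellum holds dividing granule neuron precursors in its outer layer and young granule neurons below them, together with Purkinje cells, interneurons, glia and vessels. A peak in whole tissue cannot be assigned to any of these cell types, and a mark in few cells cannot be told apart from a weak mark in many.

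The bases that carry the landscape are shown first. For each region below, the 250 bases with the most CpG inside the stretch covered by peaks of all 3 libraries were read from GRCm38, on the plus strand and 5′ to 3′, with every CG dinucleotide in capitals. The first 3 are the promoters with the longest marking shared by all libraries, namely Rara (chr11:98960378-98960627), Pou3f1 (chr4:124657593-124657842) and Ovol1 (chr19:5559992-5560241). The next 3 are the strongest promoters of single-copy sequence, namely Arhgap23 (chr11:97440199-97440448), Zyg11a (chr4:108217720-108217969) and Gipc3 (chr10:81343155-81343404). The seventh is the longest intergenic single-copy region, near 1700067P10Rik (chr17:48097673-48097922). The last 2 are contrasts, each from the strongest member of a group of narrow regions that share sequence, 1 near Zc3h7a (chr16:11143991-11144240) and 1 whose nearest gene is Rpusd4 (chr9:35305286-35305535).
Rara: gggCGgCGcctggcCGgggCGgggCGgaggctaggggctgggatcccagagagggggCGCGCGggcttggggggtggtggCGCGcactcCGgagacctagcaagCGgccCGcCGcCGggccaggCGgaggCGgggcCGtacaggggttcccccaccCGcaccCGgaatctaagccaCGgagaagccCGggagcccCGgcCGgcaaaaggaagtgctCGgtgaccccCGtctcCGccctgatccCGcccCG
Pou3f1: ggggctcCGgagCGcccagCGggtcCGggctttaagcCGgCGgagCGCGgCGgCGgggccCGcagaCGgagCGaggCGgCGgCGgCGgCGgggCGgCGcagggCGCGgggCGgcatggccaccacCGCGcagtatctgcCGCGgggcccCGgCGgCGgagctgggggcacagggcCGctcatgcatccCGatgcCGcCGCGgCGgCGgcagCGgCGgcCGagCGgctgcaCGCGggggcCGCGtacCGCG
Ovol1: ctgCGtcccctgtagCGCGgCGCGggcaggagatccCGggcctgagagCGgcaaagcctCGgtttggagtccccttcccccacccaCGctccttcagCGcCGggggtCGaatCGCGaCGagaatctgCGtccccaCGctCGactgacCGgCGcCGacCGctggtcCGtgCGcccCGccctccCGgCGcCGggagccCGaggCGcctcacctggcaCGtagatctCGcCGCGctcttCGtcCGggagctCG
Arhgap23: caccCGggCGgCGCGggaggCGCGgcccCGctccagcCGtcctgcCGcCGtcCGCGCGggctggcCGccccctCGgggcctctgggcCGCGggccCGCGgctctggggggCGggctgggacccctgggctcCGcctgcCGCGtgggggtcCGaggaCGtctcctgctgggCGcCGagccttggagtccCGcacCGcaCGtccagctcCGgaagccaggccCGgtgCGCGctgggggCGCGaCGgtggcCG
Zyg11a: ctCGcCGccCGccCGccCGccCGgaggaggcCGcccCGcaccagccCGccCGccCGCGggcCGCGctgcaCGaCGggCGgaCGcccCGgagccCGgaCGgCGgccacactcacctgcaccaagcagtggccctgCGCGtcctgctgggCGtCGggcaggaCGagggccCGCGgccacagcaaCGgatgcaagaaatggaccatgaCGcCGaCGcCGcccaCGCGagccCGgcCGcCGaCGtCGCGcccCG
Gipc3: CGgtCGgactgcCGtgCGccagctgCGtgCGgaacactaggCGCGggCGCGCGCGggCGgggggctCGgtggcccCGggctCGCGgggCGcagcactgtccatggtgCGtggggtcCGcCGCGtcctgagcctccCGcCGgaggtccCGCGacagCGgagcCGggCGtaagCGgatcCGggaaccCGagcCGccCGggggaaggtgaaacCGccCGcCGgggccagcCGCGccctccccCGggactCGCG
1700067P10Rik: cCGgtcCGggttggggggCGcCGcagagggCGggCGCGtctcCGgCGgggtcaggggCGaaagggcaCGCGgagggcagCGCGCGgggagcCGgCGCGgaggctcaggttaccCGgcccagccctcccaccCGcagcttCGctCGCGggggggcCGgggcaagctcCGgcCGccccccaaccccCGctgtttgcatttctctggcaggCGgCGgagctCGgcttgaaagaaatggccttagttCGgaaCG
Zc3h7a: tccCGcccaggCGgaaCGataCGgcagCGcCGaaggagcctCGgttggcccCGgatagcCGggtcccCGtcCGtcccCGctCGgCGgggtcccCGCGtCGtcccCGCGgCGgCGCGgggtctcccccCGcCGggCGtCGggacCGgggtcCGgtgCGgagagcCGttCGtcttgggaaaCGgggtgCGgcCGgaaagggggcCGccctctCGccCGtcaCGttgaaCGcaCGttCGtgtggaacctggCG
Rpusd4: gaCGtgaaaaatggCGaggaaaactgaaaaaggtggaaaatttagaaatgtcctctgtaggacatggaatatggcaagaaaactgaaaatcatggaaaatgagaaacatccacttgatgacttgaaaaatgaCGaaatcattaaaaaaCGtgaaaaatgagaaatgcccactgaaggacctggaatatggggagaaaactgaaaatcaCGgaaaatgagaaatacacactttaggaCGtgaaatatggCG

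The windows of the 6 promoters held between 29 CpG in Rara and 47 in Pou3f1, and the intergenic window near 1700067P10Rik held 32. The Zc3h7a window held 42 CpG. The Rpusd4 window held 7, was 36.8% G and C, and lay wholly in sequence that the assembly marks as repeat.

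The 3 lists differed in length and shared a core. They held 15388, 11852 and 8840 peaks for replicates 1, 2 and 3 and covered 15.2, 8.40 and 7.38 Mb of the genome. Median peak width was 751, 485 and 622 bp. Replicate 1 stood apart by its length and width, and it had the widest coverage in 4611 of the 5964 consensus regions (77.3%). Read numbers per library could not be had, and their part in these differences was not tested. Of the peaks, 38.9% in replicate 1, 55.4% in replicate 2 and 69.8% in replicate 3 lay in consensus regions, and these held 60.1%, 77.3% and 84.8% of the covered bases. Between pairs of lists, the shared bases were 0.411 of the joint bases for replicates 1 and 2, 0.375 for 1 and 3, and 0.485 for 2 and 3. The merged regions found in a single list numbered 10576, of which 6536 were in replicate 1 alone, and 3363 were found in 2 lists.

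Regions present in all 3 lists were wider and richer in CpG than the others. Median width was 1576 bp in 3 lists, 764 bp in 2 and 378 bp in 1, and median CpG density was 33.0, 19.2 and 13.2 per kb against 8.26 per kb over the genome. Regions without a peak in replicate 1 were low in CpG, at 7.75 per kb in replicate 2 alone, 5.71 in replicate 3 alone and 5.31 in both, while those in replicate 1 alone had 16.3. Width here partly follows from the merging, since a region in more lists joins more peaks. The share at promoters, counted within 3 kb of a transcription start site (TSS) of a protein-coding gene, was 53.7% in 3 lists, 30.7% in 2 and 22.3% in 1. Consensus regions ran from 184 to 7830 bp and covered 9.77 Mb in all, or 0.358% of the chromosomes. In 4.90 Mb of this the peaks of all 3 libraries coincided. In 151 consensus regions the lists had no base in common, so that they met only through the merging. Widths above 2 kb were reached by 1889 regions (31.7%) and above 4 kb by 64.

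By place, 3204 consensus regions (53.7%) lay at promoters, 884 (14.8%) in gene bodies outside promoters and 1876 (31.5%) between genes. Promoter windows make up 9.05% of the genome, gene bodies 31.2% and the rest 59.8%. Promoter regions were the widest, with a median of 1838.5 bp against 1161.5 bp in gene bodies and 1214 bp between genes, and their median CpG density was 43.2 per kb against 20.6 between genes. A TSS lay inside 2255 regions (37.8%). Intergenic regions had a median distance of 34218 bp to the nearest TSS, and 460 of 1876 lay beyond 100 kb of any. In the separate lists the share of peaks at promoters was 38.4%, 39.7% and 42.7% (40.3 ± 2.16%, SD, n = 3).

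Strength and width went in opposite directions at the top of the lists. The strength of a region in a library was the percent of that library's peaks with a higher −log10 q than the region's best peak, so that a low percent is strong, and regions were ordered by the worst of their 3 percents. The 84 regions within the strongest 1% of every list were 513 bp wide at the median, with median fold enrichments of 12.6, 14.1 and 12.3 in replicates 1, 2 and 3. Of these, 20.2% lay at promoters. Among the 616 regions between 10 and 20%, median width was 1979.5 bp, median fold was 3.32, 3.51 and 3.42, and 66.9% lay at promoters. Toward the weak end the promoter share declined to 44.9%.

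**Figure D1:**
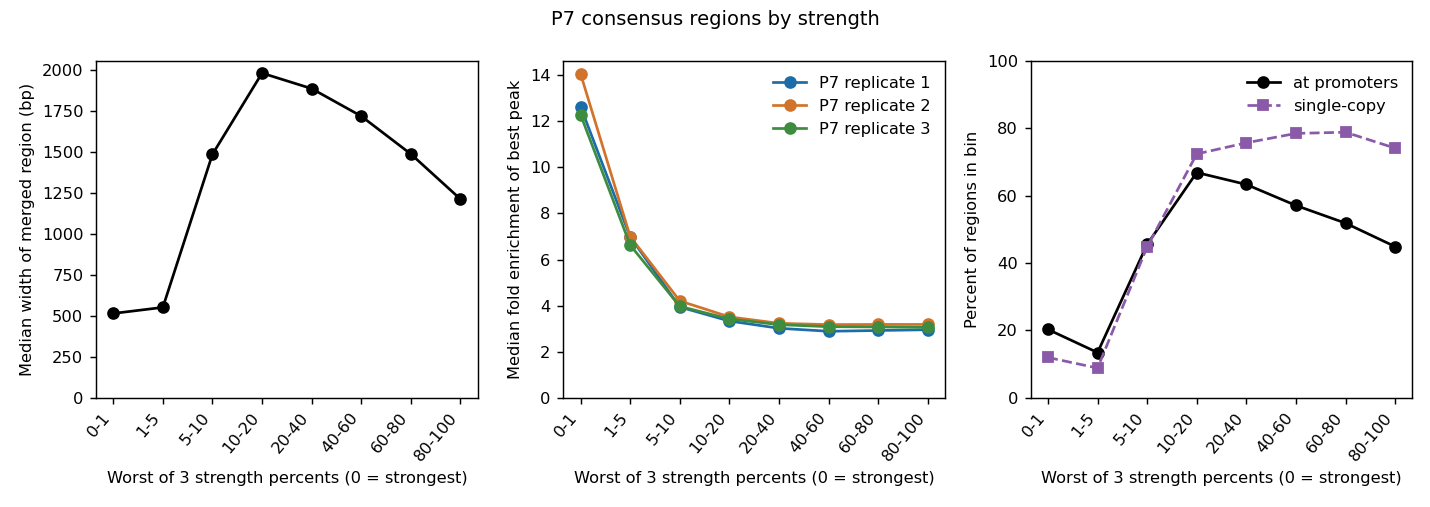
P7 consensus regions in 8 bins of strength, with median width in bp (left), median fold enrichment of the best peak in each of the 3 libraries (middle) and percent of regions at promoters or of single-copy sequence (right). Width rises from 513 bp in the strongest bin to 1979.5 bp at 10 to 20% while fold falls from above 12 to near 3 in all 3 libraries.

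Copy number in the genome moved with strength. Every consensus region was cut into 31-base words, and a region was called single-copy where 90% or more of its words occurred once in GRCm38, a class added after the values were seen. By this rule 4273 regions (71.6%) were single-copy, and in 1196 (20.1%) less than 50% of the words occurred once. Single-copy sequence made up 10 of the 84 strongest regions and 19 of the 217 between 1 and 5%, but 446 of the 616 between 10 and 20%. The median width of single-copy regions was 1797 bp, against 777 bp for the rest, and 67.3% against 19.5% lay at promoters. Reads from repeated copies can be placed or dropped in more than one way by an aligner, and the part of this in the values at the top of the lists was not tested.

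The narrow regions at the top also shared sequence with each other. Among the 100 strongest consensus regions, 79 fell into 12 groups linked by at least 20 shared words of 21 bases. The largest group held 25 regions on 14 chromosomes, led by the Zc3h7a window shown above, with a median of 48.7 CpG per kb and median folds of 13.7, 15.6 and 13.3. The second held 19 regions on 13 chromosomes, led by the region near Rpusd4, with 15.6 CpG per kb and 60.5% of bases marked as repeat. The third held 12 regions. By the same count, 6 of the 100 strongest single-copy promoters shared words, and 0 of the 100 single-copy regions with the longest shared marking.

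The order at the very top was the same across libraries to within a few places. The region whose nearest TSS is Rpusd4 (chr9:35305095-35305711), 29898 bp away, ranked 2, 2 and 1. The region 1891 bp from Zc3h7a (chr16:11143798-11144423) ranked 1, 1 and 2, with a fold of 14.3 in replicate 1 and 15.6 in replicate 2, and was the strongest counted at a promoter. Next between genes came regions whose nearest genes were Gm8797 (ranks 3, 4 and 3), Myom2 (4, 5 and 5), Axin2 (10, 11 and 9), Mc2r (9, 7 and 10) and Rab10 (14, 10 and 11), at distances from 67899 bp for Axin2 to 400656 bp for Myom2. The strongest regions in gene bodies lay in Chl1, which encodes a cell adhesion molecule (ranks 7, 3 and 4), in Cmss1 and Filip1l (6, 8 and 6), Peak1 (5, 6 and 7), Arhgap21 (8, 9 and 8), Cdk8 (12, 15 and 13) and Cdk5rap2 (20, 12 and 14). Their widths ran from 403 bp in Cdk5rap2 to 803 bp in Filip1l.

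The 15 strongest promoter regions were mostly of this narrow kind. After Zc3h7a came Sspn, Kpna1, Gm10800, the shared window of Aida and Brox, Gm10801, Ank1, H2-Q4, Litaf, Tmem56, Mphosph8, Il31ra, Oasl1, Taco1 and a second region between Gm10800 and Gm10801. None of the 15 was single-copy, and their worst percents ran from 0.0170 for Zc3h7a to 0.911 for the second Gm10800 region. Apart from the first Gm10800 region and the Gm10801 region, none touched a TSS. The distance ran from 260 bp at Litaf to 2774 bp at Tmem56, so these genes are named for their windows and not for a mark over their start.

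Restricted to single-copy sequence, the 15 strongest promoter regions were broader, from 1381 bp at Foxj1 to 2807 bp at Gemin7, and all but those of Arhgap23 and Foxj1 overlapped a TSS. Arhgap23, which encodes a GTPase activating protein, led with ranks of 240, 260 and 366, and its region lay 2810 bp from the nearest TSS. It was followed by Zyg11a (380, 339 and 409) and by the shared promoter of Gipc3 and Hmg20b (189, 397 and 415). Klf14 ranked 457, 433 and 432 and Egr4 208, 422 and 440, and both encode zinc finger transcription factors. Egr4 had 2314, 1936 and 1982 bp under peaks and 99.4 CpG per kb, the highest density among these 15. Rbm46, an RNA binding protein gene known from the germline, Fosl1, an AP-1 subunit, and Pkp1, a desmosome component, came next with ranks of 140, 302 and 450, then 183, 487 and 477, then 268, 644 and 475. Further genes included the window of Gemin7, Zfp296 and Clasrp, that of Myo15b and Llgl2, Pou2f3, Fam83g, Foxj1, the regulator of motile cilia, and Epha2, an ephrin receptor. Worst percents in this set lay between 4.13 and 5.67.

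The longest shared marking of single-copy sequence lay at promoters except for 1 of the 12 longest regions. At Rara (chr11:98959040-98963489), the gene of retinoic acid receptor alpha, the region overlapped a TSS inside the gene. There 4014, 3761 and 4315 bp lay under peaks in replicates 1, 2 and 3, and 3761 bp in all of them. Pou3f1 (chr4:124656506-124660230) had 3714, 3588 and 3597 bp, which is nearly the same stretch in every library. Ovol1 had 4178, 3575 and 3535 bp, and Prdm14, a regulator of the germline, 4261, 3454 and 4371 bp. At Wnt1, which encodes the signal of the midbrain and hindbrain boundary, the lengths were 3723, 3465 and 3705 bp. Catsperz, Etv2, Arhgap27 and the neuronal pentraxin gene Nptx1 followed with 3274 to 3349 bp shared. The longest intergenic one, near 1700067P10Rik (chr17:48094824-48099853), had 3202 bp shared. These domains were weak by rank, with ranks at Rara of 3110, 4905 and 3291 and folds of 1.92, 2.11 and 2.17.

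**Figure D2:**
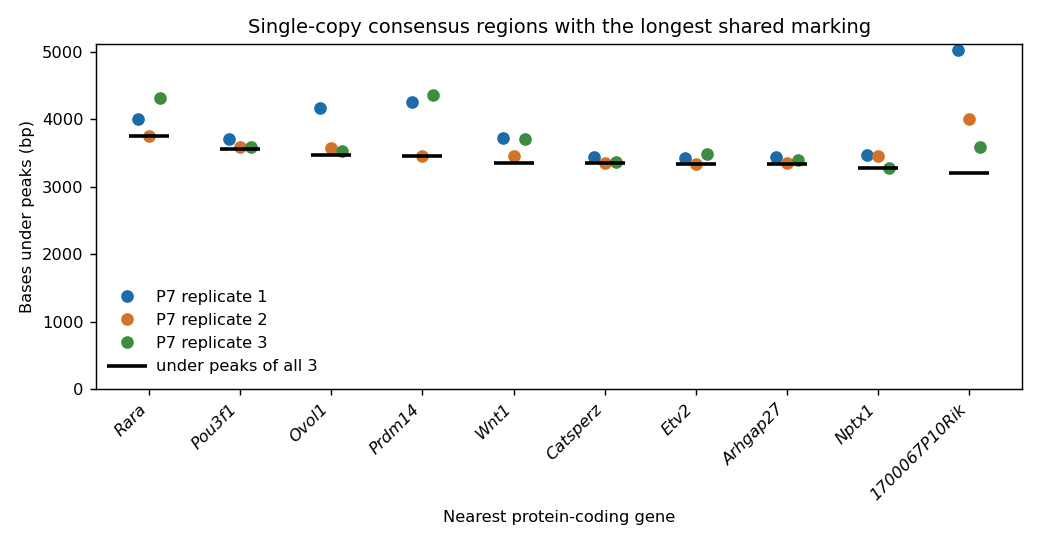
Bases under peaks in each P7 library (points) and under peaks of all 3 (black lines) at 10 of the 12 single-copy consensus regions with the longest shared marking. Shared lengths run from 3202 bp near 1700067P10Rik to 3761 bp at Rara.

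Over all sequence, 6 of the 10 regions with the most shared bases came before Rara. The longest, 6955 bp within Tmem267 (chr13:119595643-119603472), had 29.6% of its words at 1 copy. The second (chr17:39843043-39848796) had 5747, 5754 and 5710 bp under peaks, 102 CpG per kb and ranks of 209, 333 and 198, and GENCODE places an rRNA gene and the lincRNA Gm26917 in it. The third lay on the X chromosome (chrX:137107136-137112201) over 4 processed pseudogenes, among them Gm15039, with 3.17% of its words at 1 copy. The next were near Sfi1, over Gm21738 and over Gm10722 at the start of the chromosome 9 assembly. After Rara came a region within Muc19 whose nearest TSS is Smgc (8.92% single-copy words), Emx1, a forebrain factor with 3910, 3624 and 3618 bp, and Pou3f1.

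Among single-copy regions outside promoters, several of the longest lay beside developmental genes. Between genes they included a region 11068 bp from En1, a factor of the cerebellar anlage, with 2538 bp shared, and one 17318 bp from Pax7 with 2313 bp. In gene bodies they included Onecut3 (2457 bp shared), Grin1, the obligate NMDA receptor subunit (2308 bp), Nxph1 (2291 bp) and Cbx8, a reader of H3K27me3 (2167 bp). The Cbx8 region ranked 250, 696 and 639 and was the strongest of these.

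Within the windows of marked genes, coverage was highest just downstream of the start. Across the 3128 genes marked in all 3 libraries, the percent of bases under a peak was highest between 500 and 750 bp downstream of the gene's 5′ end in replicates 1 and 3 and between 250 and 500 bp in replicate 2, at 62.3%, 47.0% and 50.4%. It was 2.91%, 1.80% and 1.65% at 10 kb upstream and 3.58%, 2.38% and 2.13% at 10 kb downstream, in replicates 1, 2 and 3. A gene counted as marked in a library when 1 bp or more of a window of 3 kb on either side of any of its TSSs lay under a peak. These genes were chosen for a peak near a TSS, so much of the fall with distance follows from that choice.

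**Figure D3:**
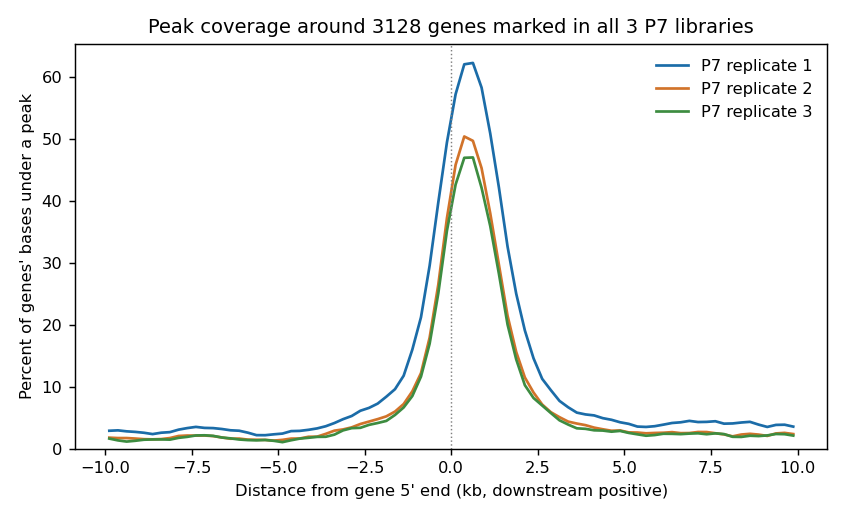
Percent of bases under a peak in bins of 250 bp, against distance from the 5′ end of the 3128 genes marked in all 3 P7 libraries, with 1 line per library. All 3 lines peak within 750 bp downstream of the start, at 62.3% in replicate 1, 50.4% in replicate 2 and 47.0% in replicate 3.

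Of 21938 protein-coding genes, 3128 were marked in all 3 libraries, which is a background of 14.3%. Another 900 were marked in 2 libraries and 1578 in 1, and 16332 (74.4%) in none. By sequence class of the start, 18.2% of 10422 CpG-rich promoters were marked in all 3, 19.8% of 4208 intermediate ones and 5.42% of 7308 CpG-poor ones. Counts by gene family and list below are a description beside the 14.3% over all genes, and no set test was made. Percentages beside a gene name give how much of its best-covered TSS window lay under peaks, in the order of replicates 1, 2 and 3, and are called coverages.

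Homeobox and other developmental transcription factor families were marked above the background when peaks of every strength were counted. This rested largely on weak peaks. With a −log10 q of at least 4 in every library, 2.36% of all genes were marked, and 0 of the Hox, Irx, Dlx, Nkx, Pax, Sox and Tbx genes. Other factor families kept a few at that limit, with 3 of 44 Fox, 1 of 12 LIM homeobox, 1 of 6 Gata, 3 of 17 Klf and 1 of 15 Pou genes. All 6 Irx genes and all 6 Dlx genes were marked in every library, and 10 of 12 LIM homeobox genes, in which Lhx1 and Lhx5 were unmarked. Dlx3 had coverages of 54.9%, 47.7% and 39.9%, and Irx5 of 64.4%, 29.5% and 26.8%, replicate 1 being the highest in both. The strongest member of the LIM group was Lhx8, a factor of basal forebrain neurons. Of 14 Nkx genes 10 were marked, with coverage at Nkx6-2, an oligodendrocyte and ventral neural tube factor, of 81.4%, 39.7% and 35.4%, and Nkx6-3 was unmarked. Of 39 Hox genes 31 were marked in all 3 libraries and the other 8 in 1 or 2, so that none was free of peaks. All 9 Hoxc and all 9 Hoxd genes were marked in every library, but 7 of 11 Hoxa and 6 of 10 Hoxb genes. Of 9 Pax genes 6 were marked in all 3, led by Pax8 (57.2%, 57.7% and 39.1%), and 3 when only 5′ ends were used.

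Among the remaining factor families, Tbx (12 of 16), Gata (5 of 6), Sox (13 of 20) and Fox (27 of 44) were also above 14.3%. Gata5, a heart and gut factor, was the strongest Gata gene with 51.3%, 36.0% and 40.9%, and Gata1, the erythroid factor, was unmarked. Sox10, which drives oligodendrocyte identity, had 43.4%, 35.0% and 38.6%. Sox2, a progenitor factor, had 45.1%, 40.1% and 36.1%. Sox4, Sox11, Sox12, Sox15 and Sry were unmarked. Tbx6 and Tbx19 were the unmarked Tbx genes, and Tbx21, a T cell factor, the strongest (49.6%, 43.0% and 45.8%). Klf (5 of 17) and Pou genes (6 of 15) were marked less widely, with Klf14 and Pou2f3 strongest.

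Of the 5 Zic genes 0 were marked in all 3 libraries, which with so few genes is near the 14.3% over all genes. Zic1, Zic2 and Zic5 had no peak in any library, which is 3 of 5 beside 74.4% of all genes. ZIC proteins are zinc finger factors abundant in granule neurons. Of the 29 granule lineage factors, 6 were marked in all 3 libraries (20.7%), 14 in 1 or 2 and 9 in none. The 6 were Sox2, Gli1, Atoh1, Barhl1, Gbx2 and Meis2. Coverage at Atoh1, the proneural factor of granule precursors, was 22.1%, 12.1% and 10.6%, and at Gli1, a target of hedgehog signalling, 30.9%, 28.6% and 19.2%. Etv1, Mycn, Nfia, Nhlh1, Sox4 and Sox11 were without a peak, beside the 3 Zic genes.

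Lists of factors of other regions and germ layers were marked at shares from 15 of 20 to 28 of 31. Of 30 forebrain factors 27 were marked in every library and 3 in 1 or 2. At a −log10 q of at least 4 the counts were 0 forebrain, 1 hindbrain and spinal cord, 1 mesoderm and muscle and 3 endoderm factors. Bcl11b was the strongest of the list, and Emx1 had 65.2%, 60.4% and 60.3%. Of 31 genes listed as hindbrain and spinal cord factors 28 were marked, and the strongest entry was Pitx3 (54.1%, 39.6% and 37.1%). Membership of the list does not place Pitx3 in those regions. Of 40 mesoderm and muscle factors 32 were marked, and the 5 without a peak were Mesp2, Msgn1, Myf5, Myf6 and Myog, of which Myf5, Myf6 and Myog direct muscle formation. Of 20 endoderm factors 15 were marked, led by Cdx1 (48.2%, 42.6% and 48.7%). Germline and pluripotency genes were marked less often, at 6 of 20, with Esrrb (50.9%, 42.7% and 39.7%) and Lin28a (38.0%, 29.9% and 32.0%) strongest.

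**Figure D4:**
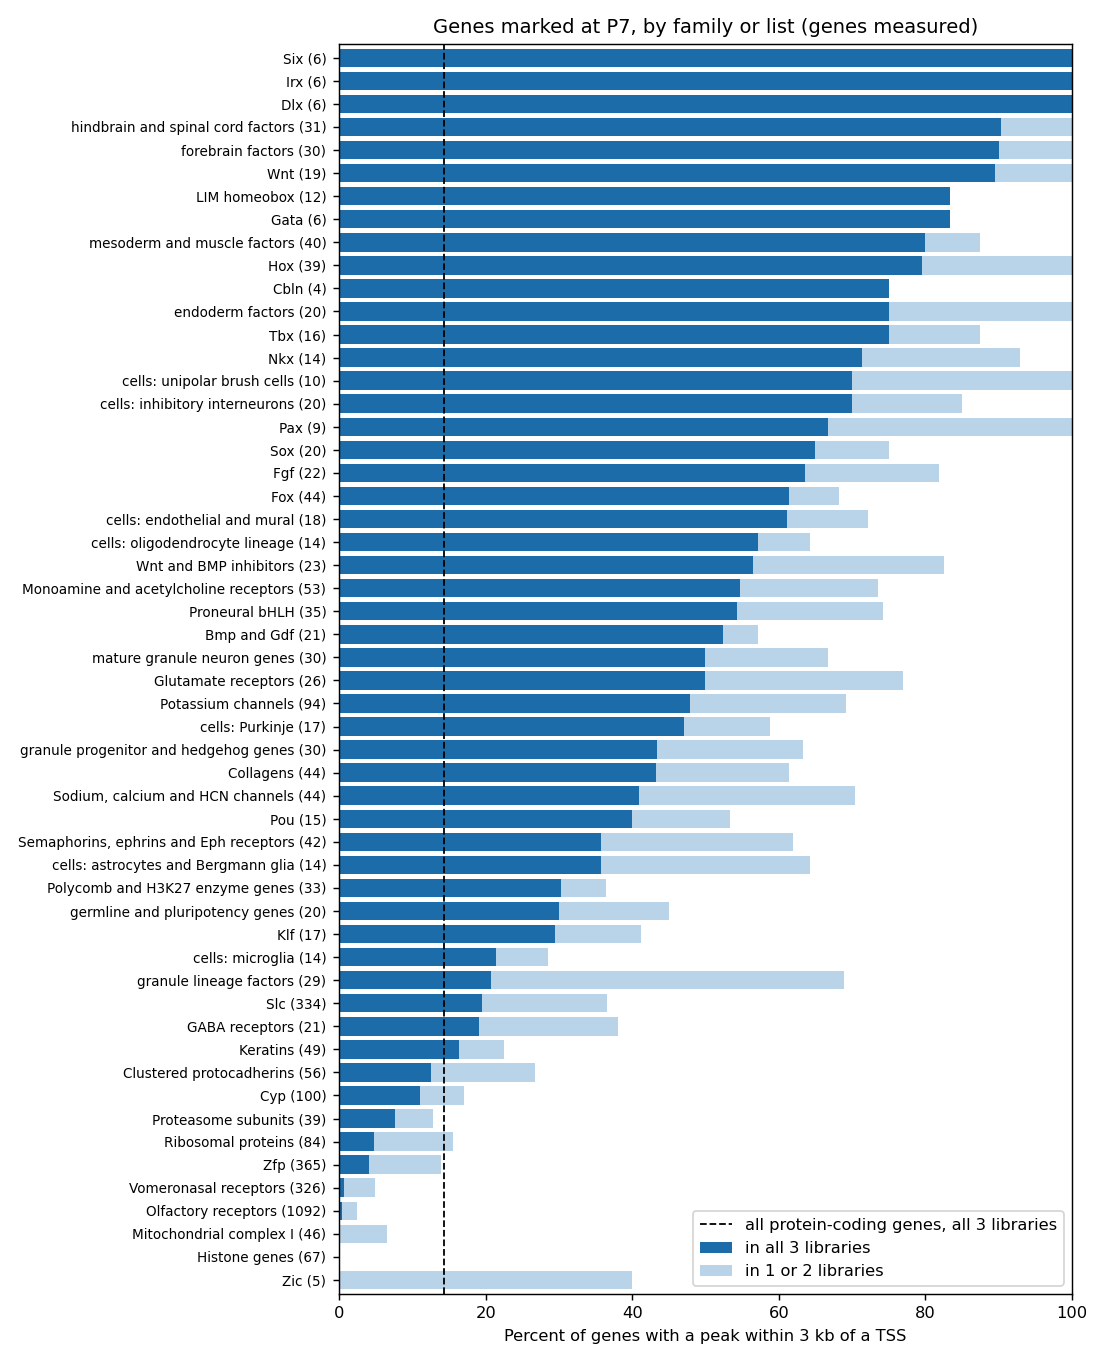
Percent of genes with a peak within 3 kb of a TSS in all 3 P7 libraries (dark bars) and in 1 or 2 (light bars) for 37 gene families and 17 lists, with the number of genes measured in brackets. The dashed line is the 14.3% of all protein-coding genes, and bars range from 100% for Irx and Dlx to 0% for Zic and histone genes.

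Among secreted signals, Wnt genes had the highest share at 89.5%, with Fgf at 63.6% and Bmp and Gdf at 52.4%. Of 19 Wnt genes 17 were marked in all 3 libraries and the other 2 in 1 or 2. Wnt6 had 47.9%, 45.2% and 43.7%, and Wnt2b 49.3%, 48.5% and 46.4%, which differ little between libraries. Of 22 Fgf genes 14 were marked, led by Fgf20 (37.4%, 34.7% and 34.9%), and Fgf6, Fgf7, Fgf22 and Fgf23 were unmarked. Of 21 Bmp and Gdf genes 11 were marked, with Bmp8b strongest. Of 23 inhibitors of Wnt and BMP signals 13 were marked, led by Nog, which encodes the BMP antagonist noggin and lay within the strongest 7.21% of every list. Bambi, Cer1, Dkk4 and Fstl1 were unmarked.

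Groups of genes of neuronal function ranged from 4 of 21 for GABA receptors to 29 of 53 for monoamine and acetylcholine receptors. Of 94 potassium channel genes 45 were marked in all 3 libraries, led by Kcnn1, a calcium-activated channel (41.6%, 38.7% and 37.8%), and of 44 sodium, calcium and HCN channel genes 18. Of 26 glutamate receptor genes 13 were marked, led by Grin2c, the NMDA receptor subunit of mature granule neurons (34.3%, 29.7% and 28.3%). GABA receptor genes were marked at 4 of 21, Gabrd being the strongest. Of 53 monoamine and acetylcholine receptor genes 29 were marked, led by Htr1d and Adra1d. Of the 30 genes listed for mature granule neurons 15 were marked, with Slc12a5, the neuronal chloride exporter KCC2, at 47.1%, 47.3% and 57.4%, and Gabra6, Cbln3, Camk4, Nefm, Scn2a, Syt1 and Vamp2 among the 10 with no peak. In the cerebellin family Cbln1, Cbln2 and Cbln4 were marked and Cbln3 was not. Of the 30 granule progenitor and hedgehog genes 13 were marked, led by the cell cycle inhibitor gene Cdkn2a (12.1%, 11.8% and 16.6%) and the Notch target Hes5 (49.1%, 38.2% and 34.1%). The region that put Cdkn2a first had a worst percent of 2.51. It was not single-copy, since the strongest single-copy promoter region, that of Arhgap23, had 4.13. In the cluster of Cdkn2a and Cdkn2b, 6 of 7 regions were single-copy. Ptch1, Smo, Boc, Mycn and Top2a were among those with no peak. No peak in any library was found for 33.3% of the mature granule neuron list and 36.7% of the progenitor list. Both shares were below the 74.4% over all genes.

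The genes of the Polycomb system were themselves divided. Of 33 genes for its subunits and for H3K27 enzymes, 10 were marked in every library, among them Epop, Cbx7, Cbx8, Rybp, Cbx2, Phf19, Bmi1, Pcgf5 and Kdm2b. Epop, an accessory subunit of the methyltransferase complex, was strongest (31.4%, 25.6% and 27.8%), followed by Cbx7 (43.4%, 34.5% and 27.7%). The core subunits and enzymes Ezh1, Ezh2, Eed, Suz12 and Kdm6a had no peak, and Kdm6b had one in 1 library. In all, 21 of the 33 genes (63.6%) had no peak in any library, beside 74.4% of all genes.

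Markers of the other cell types of the tissue were marked at rates from 21.4% to 70.0%. Marked in all 3 libraries were 8 of 17 Purkinje cell genes, 14 of 20 interneuron genes, 7 of 10 unipolar brush cell genes, 5 of 14 astrocyte and Bergmann glia genes, 8 of 14 oligodendrocyte lineage genes, 11 of 18 endothelial and mural genes and 3 of 14 microglia genes. Within 1 kb of a TSS the Purkinje cell count was 4 and the microglia count 1, and with 5′ ends only the Purkinje cell count was 5. Several defining genes had no peak in any library, among them Gfap, S100b and Slc1a3 of astrocytes, Mbp and Mog of myelin, and Pecam1, Cdh5 and Tie1 of endothelium. The share with no peak was 35.7% in the astrocyte list, 35.7% in the oligodendrocyte list and 27.8% in the endothelial and mural list. All 3 shares were below the 74.4% over all genes. Marked ones included Npy (50.7%, 46.4% and 47.3%) of interneurons, Cldn5 (48.6%, 44.6% and 42.5%) of endothelium, Rora (38.2%, 27.4% and 25.9%), which Purkinje cells require, and Olig1 (36.0%, 33.5% and 27.8%). A promoter mark in whole tissue names no cell type, and these lists were read with the label cerebellum only.

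Housekeeping and large receptor families fell below the background when peaks of every strength were counted. Of 84 ribosomal protein genes 4 were marked, of 39 proteasome subunit genes 3, and of 46 complex I genes 0. In single-copy regions the ribosomal protein count was 0. At a −log10 q of at least 4, 2 of the 39 proteasome subunit genes and 0 ribosomal protein genes were marked, beside 2.36% of all genes. Of 67 histone genes none had a peak in any library. Olfactory receptors were marked at 4 of 1092 (0.366%), vomeronasal receptors at 2 of 326, and Zfp genes at 15 of 365 (4.11%). Cytochrome P450 genes (11 of 100) and keratins (8 of 49) were near the background. Solute carriers (65 of 334, 19.5%) were somewhat above it and collagens (19 of 44) well above it. Cyp24a1, the vitamin D hydroxylase gene, had 56.8%, 50.9% and 50.9%.

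Some consensus regions lay in clusters, while 2848 had no other within 50 kb. No expected number of clusters was computed. Chained where the gap was 50 kb or less, consensus regions formed 119 clusters of 5 or more regions, which held 979 regions (16.4%). In 90 of the clusters at least 50% of the regions were single-copy. The cluster with the most shared bases spanned 245 kb of chromosome 3 (chr3:96283506-96528768), with 30 regions and 24487 bp shared. RefSeq places 25 tRNA and 8 snRNA genes there, of which consensus regions covered 18 and 8. The second (chr8:123512570-123624561) had 26 regions and 22769 bp shared in 112 kb, and 20 of its 48 5S rRNA genes lay in consensus regions. Its bases under peaks were 36366, 25899 and 30946 in replicates 1, 2 and 3. The third (chr17:36032102-36252920) ran along H2-T genes of the class I histocompatibility complex with 21 regions, and a cluster from H2-D1 to H2-Q10 on the same chromosome had 11.

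The next clusters by shared bases were a pair on chromosome 5 at Speer4 genes (31 and 23 regions), the Gm10722 array at the start of the chromosome 9 assembly (12 regions, 47.1% of its 38.3 kb shared) and one on chromosome 13 at Gm36079 and Gm21188 (15 regions). None of the regions of these clusters was single-copy. A cluster of 8 regions beside Fcgr3 on chromosome 1 (chr1:170988318-171103235) held 24 tRNA genes, of which 18 lay in consensus regions. Over the genome 71 of 403 tRNA genes (17.6%) lay in consensus regions, against 10 of 997 snRNA genes and 0 of 1330 snoRNA genes. Genes of this kind occur in near-identical copies, so reads cannot be assigned to 1 copy with certainty.

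The eighth cluster was the first whose regions were all single-copy. It covered the HoxC genes (chr15:102919747-103184126) with 21 regions, 13996 bp shared and 36922, 22249 and 20306 bp under peaks in the 3 libraries. HoxD with Evx2 (chr2:74647581-74764340) had 14 regions and 10005 bp shared in 117 kb, and HoxB (chr11:96081021-96408098) 17 regions and 10260 bp in 327 kb. Other clusters of mostly single-copy regions lay at Des, Speg, Asic4 and Obsl1 on chromosome 1 (10 regions), at Fosb and Ckm on chromosome 7 (10 regions), at Casz1 on chromosome 4 (14 regions), at Plekhg5 and Hes2 on chromosome 4 (7 regions in 75.5 kb) and at Fgf3, Fgf4, Fgf15 and Ccnd1 on chromosome 7 (6 regions).

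**Figure D5:**
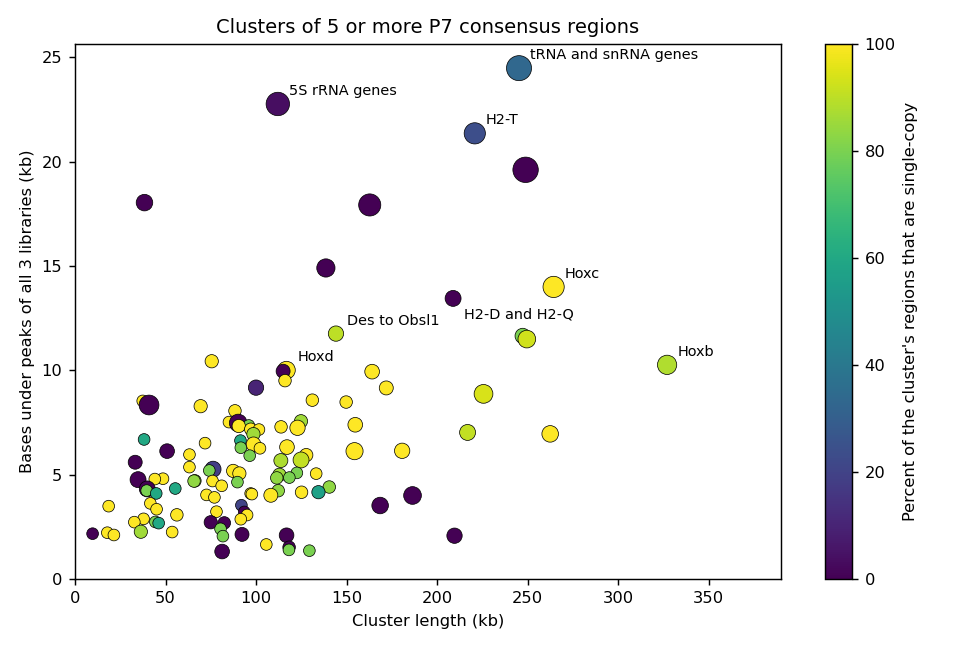
The 119 clusters of 5 or more P7 consensus regions by length (kb) and bases under peaks of all 3 libraries (kb), with point size rising with the number of regions and colour giving the percent that are single-copy. Of the 7 clusters with the most shared bases, the one on chromosome 3 has 10 of 30 regions single-copy and the others fewer, and HoxC, with 21 of 21, comes next.

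By chromosome, density ran from 3.61 consensus regions per Mb on chromosome 11 to 0.737 on the X and 0.283 on the Y. Set against gene number, chromosome 8 had the most with 39.6 regions per 100 protein-coding genes and the X the fewest with 13.3. Of the 126 regions on the X, 34.9% were single-copy and 36.5% lay at promoters, both under the values over all chromosomes.

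The libraries ranked the consensus regions alike but not identically. Spearman's rho of the strength percents over the 5964 regions was 0.736 for replicates 1 and 2, 0.710 for 1 and 3 and 0.732 for 2 and 3, over regions that share their libraries. The 6 regions on which they differed most were short, with gaps between best and worst percent of 86.2 to 88.4 points. The region near Gm10778 ranked 1161, 3954 and 8479, and that at Prr23a3 1917, 8129 and 8833. The regions near Gm21119, Gm31371, Il1b and Cd47 ranked highest in replicate 3 and near the end of replicate 2, at 11032, 11006, 10969 and 11195 of its 11852 peaks. The 3 weakest consensus regions lay near Kif26a, Pax2 and Tollip, where the −log10 q in replicates 2 and 3 was as low as 1.01. Just outside, the 3 strongest regions present in 2 lists lay near Galc, Gm8882 and Xpnpep1. The Galc region ranked 131 in replicate 2 and 117 in replicate 3 and had no peak in replicate 1, and it was narrow, at 484 bp.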

How the data were processed

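H3K27me3 ChIP-seq of whole P7 cerebellum was deposited as 1 list of broad peaks per library. Per the submitters' processing notes, the authors used FastQC, Trimmomatic 0.38, STAR 2.7.2b, the mm10 build and MACS2 2.1, and replicates were not pooled. The deposited values are a score (10 times the −log10 q, cut to a whole number), the fold enrichment as a ratio, and the −log10 of p and of q, each set within its library. Except in the counts at a −log10 q of at least 4, the −log10 q served in the main results only to rank peaks within a list. Every deposited peak was used outside those counts, which applied the same limit to each library. Its lowest value was 1.00, 1.01 and 1.01 in replicates 1, 2 and 3. The study's methods name a stricter limit for ChIP-seq peaks, equal to a −log10 q of 2. That limit was reached by 61.8%, 56.5% and 59.5% of the peaks. Read numbers per library are not given in the sources, so depth is unknown and no interval was computed.

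Peaks were merged, and places, TSS windows of 3 kb and clusters (gaps of 50 kb) were computed in Python 3.11.15 with numpy 2.4.6 and pandas 2.3.3, from GENCODE vM21 and the GRCm38.p6 assembly, whose coordinates are those of mm10. The merging and intersection steps were tested on simulated intervals against bedtools 2.31.1. CpG classes of promoters came from windows of 500 bp within 1 kb of the 5′ end, with an observed-to-expected CpG ratio of at least 0.75 and 55% G and C for the rich class and of at least 0.48 for the intermediate one. Small RNA genes came from RefSeq. With 1 group no test was made.

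Named were the strongest, longest, most discordant and edge regions, up to 4 strongest members of each of 37 families and 17 lists, and unmarked members where 5 or fewer. Genes named beyond these, such as unmarked members of larger lists, were chosen after their values were seen. The members and lists were chosen with earlier results of these data known. Single-copy sequence (31-base words, 1 start in 5 bases) and shared words of 21 bases were added after seeing the data. Coordinates on chromosome 18 were not printed. Some genes that the rule named are not reported here.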

Additional observations from a re-analysis of the deposited data

How the results depend on the processing

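Alternatives changed 1 choice at a time. Among them, a −log10 q of at least 2 is the limit named in the study's methods. The consensus of 5964 regions became 3676 with a −log10 q of at least 2, 1075 with at least 4 and 3591 when 50% of a region had to be shared, and 6466 to 8048 without 1 replicate. The promoter share of 53.7% became 48.6% within 1 kb of a TSS, 44.7% with 5′ ends only, 56.5% and 44.9% at the 2 q limits, 59.7% with peaks of 300 bp or more, 56.4% with equal numbers of peaks, 48.9% to 50.9% without 1 replicate, and 67.3% in single-copy regions. Median width (1576 bp) became 1745 bp at a −log10 q of 2, 1752 bp with peaks of 300 bp or more, 1059 to 1426 bp without 1 replicate and 1797 bp in single-copy regions. The 119 clusters became 59 with gaps of 20 kb, 214 with 100 kb, 41 and 7 at the q limits, 79 with peaks of 300 bp or more, 39 with 50% shared, 134 to 214 without 1 replicate and 72 in single-copy regions. The 3128 marked genes became 2134 at a −log10 q of 2, 518 at 4 and 3183 to 3767 without 1 replicate. Counts by family were not made at a −log10 q of 2. The causes were not tested. Of 54 families and lists, 10 had fewer than 5 marked genes. At a −log10 q of 4, counts fell in all 44 others and 13 reached 0, among them Hox, Irx, Dlx and forebrain factors. Of the 44, 15 were then below the 2.36% over all genes and 29 above it. With 1 kb windows Zfp genes went from 15 to 9 and olfactory receptors from 4 to 1, and in single-copy regions clustered protocadherins went from 7 to 0 and keratins from 8 to 5. Without replicate 2, olfactory receptors went to 7, and without replicate 3, proteasome subunits went from 3 to 5. The single-copy setting was chosen after seeing the data. Depth is unknown, so the limit it sets could not be given. No paired analysis was possible because the results come from no test.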
